A study of Mus musculus with 31 samples.

Results

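Dendritic cells are antigen-presenting cells that arise from bone marrow progenitors under the growth factor FLT3 ligand and divide into plasmacytoid cells, which secrete type I interferon, and conventional cells, which prime T cells. The conventional cells fall into type 1, which depend on the transcription factor BATF3 and take up dead cells for presentation to CD8 T cells, and type 2, which mostly present antigen to CD4 T cells. In mouse spleen, part of the type 2 cells and the plasmacytoid cells carry CD4 protein themselves. The 8 genes described here are Siglech of plasmacytoid cells, Xcr1, Clec9a and Batf3 of type 1 cells, Cd209a of type 2 cells and monocyte-derived dendritic cells, and Flt3, Zbtb46 and Itgax, which several types share. They were taken by symbol, each from 1 row in every table, out of 55276 symbols in the tables of 21 libraries and 49315 Ensembl genes in those of the other 10, and all 8 passed the filter on low counts in every comparison.

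The series holds bulk polyA RNA-seq of 31 libraries from mice of strain C57B/6, made to study the VAV1-MYO1F gene fusion of peripheral T-cell lymphoma in CD4+ T cells and whole spleen. In the pre-lymphoma set, CD4+ T cells came from 3 fusion/fusion libraries, labelled pre-lymphoma with Vav1Myo1ffl/wt;CD4CreERT2 (Vav1Myo1f) on both sides of a slash, from 3 control/fusion libraries, labelled pre-lymphoma with CD4-Cre-ERT2(WT) before the slash and Vav1Myo1ffl/wt;CD4CreERT2 (Vav1Myo1f) after it, and from 2 control libraries of genotype CD4-Cre-ERT2(WT). The labels do not explain the slash. In the CD4-Cre set, tumor mice of genotype CD4-CreVav1Myo1f fl/wt gave 4 CD4+ and 3 spleen libraries, and normal mice of genotype CD4-Cre(WT) gave 3 of each. In the CD4-CreERT2 set, tumor mice of genotype CD4-CreERT2Vav1Myo1f fl/wt gave 2 CD4+ and 3 spleen libraries, and normal mice of genotype CD4-CreERT2 (WT) gave 2 CD4+ and 3 spleen libraries. Controls carry the Cre driver by their label. Cd4 regulatory sequence drives Cre in T cells, and CreERT2 is a form that acts only with an estrogen receptor ligand such as tamoxifen. Ages are not given, nor is it stated whether libraries of the pre-lymphoma set come from separate animals, so p-values there measure the spread between libraries, which may be technical.

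Libraries held 12632196 to 37568512 gene counts. The CD4+ library of tumor mouse VM98 had 34546 genes with a count, against 18368 to 24649 in the others. It also had the highest share of reads not assigned, 46%, among the libraries where this is known. Its Ddx3y counts were 73, against 0 to 10 in other female libraries, and the cause was not tested. The summed level of 7 T cell genes was 3634 to 5806 CPM in the CD4+ libraries and 731 to 1856 CPM in spleen libraries, so the label of the CD4+ libraries fitted its markers, but 8 B cell genes still summed to between 57 and 2649 CPM there and 12 macrophage genes to between 184 and 6177 CPM. In CD4-Cre controls the macrophage sum was higher in CD4+ libraries, at 2921 to 5203 CPM, than in spleen libraries, at 1620 to 3451 CPM, in each of the 3 mice. CPM are read counts divided by library size, scaled by TMM within each set, so levels are compared within a set only. The name VM645 stands on a tumor CD4+ library and on a control library of each tissue, with different genotype labels, and the values of the main results without these libraries are given with them. By Xist and Ddx3y counts, all CD4-CreERT2 control libraries and mouse VM236 were female, while tumor mice VM231 and VM294 were male. In the CD4-Cre set, tumor mice VM58 and VM98 and all libraries named VM645 were female. Tumor mouse VM388 and control mice VM211 and VM216 were male, so without the VM645 libraries no female control was left there. In the pre-lymphoma set, the control/fusion library TA020 was female and all others were male. In bulk samples, fewer cells of a type and less RNA per cell cannot be told apart.

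The windows 250 bases upstream of the RefSeq start of 4 of the genes (build GRCm38.p6) are shown. Xcr1 and Clec9a were chosen because these genes of type 1 cells departed from each other in CD4-Cre tumor CD4+ libraries. Itgax and Zbtb46 were chosen as the pair of members that hold an AP-1 motif. This is the kind of site that BATF proteins bind together with JUN proteins. Capitals mark motif matches. The Xcr1 window is chr9:123862030-123862279 (minus strand), the Clec9a window chr6:129408612-129408861 (plus strand), the Itgax window chr7:128129300-128129549 (plus strand) and the Zbtb46 window chr2:181424389-181424638 (minus strand), which lies inside the annotated Zbtb46 gene.
Xcr1: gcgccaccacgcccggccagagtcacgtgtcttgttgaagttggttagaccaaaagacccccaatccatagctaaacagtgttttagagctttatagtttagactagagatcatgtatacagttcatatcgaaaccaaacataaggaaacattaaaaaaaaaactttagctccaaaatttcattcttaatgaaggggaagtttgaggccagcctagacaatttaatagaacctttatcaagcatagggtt
Clec9a: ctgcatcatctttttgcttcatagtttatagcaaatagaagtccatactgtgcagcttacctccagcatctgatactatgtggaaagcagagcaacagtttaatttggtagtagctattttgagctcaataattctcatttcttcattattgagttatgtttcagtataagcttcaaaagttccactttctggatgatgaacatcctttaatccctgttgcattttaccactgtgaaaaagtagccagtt
Itgax: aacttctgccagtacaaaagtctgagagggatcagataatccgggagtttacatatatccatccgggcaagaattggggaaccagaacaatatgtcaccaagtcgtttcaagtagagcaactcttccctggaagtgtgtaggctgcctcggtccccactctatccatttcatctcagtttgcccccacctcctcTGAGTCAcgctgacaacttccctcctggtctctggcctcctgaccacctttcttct
Zbtb46: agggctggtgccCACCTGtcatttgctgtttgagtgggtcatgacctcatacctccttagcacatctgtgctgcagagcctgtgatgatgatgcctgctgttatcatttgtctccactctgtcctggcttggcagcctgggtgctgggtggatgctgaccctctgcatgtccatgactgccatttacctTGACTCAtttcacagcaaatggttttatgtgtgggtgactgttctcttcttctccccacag
The AP-1 motif TGANTCA, which reads alike on both strands, began 56 bases before the RefSeq start of Itgax and 61 bases before that of Zbtb46. It stood in 6.75% of the 32851 promoter windows in the table. The annotated start of Zbtb46 on the minus strand is at 181459426, so its match is not upstream of the annotated gene. The E-box CACCTG, searched on both strands, was found in the windows of Zbtb46 and Siglech, against 17.2% of all windows. The PU.1 core GAGGAA was found in the window of Batf3, which also lies inside the annotated gene, against 23.3% of all windows. None of these letters stands in the windows of Xcr1, Clec9a, Flt3 or Cd209a, from which nothing follows about the factors.

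Gene lengths come with the CD4-CreERT2 tables only and were applied to all sets. By these lengths, the order of levels differed between the sets. In control CD4+ libraries of the pre-lymphoma set, Itgax, an integrin chain known as CD11c, was the most abundant member at 8.67 ± 1.34 CPM per kb (SD, n = 2), and Xcr1 the least abundant at 0.609 ± 0.0842 CPM per kb, within the range of Zbtb46 at 0.737 ± 0.274 CPM per kb. In control CD4+ libraries of the CD4-Cre set, Cd209a led at 62.4 ± 2.69 CPM per kb (SD, n = 3), ahead of Siglech at 41.9 ± 2.91 CPM per kb, without overlap of their libraries. Some members overlap other genes in the annotation, and no source gives the reads' strand. Clec9a overlaps Clec1b and Gm43914 on its own strand, Flt3 overlaps the antisense gene Gm26597 and Zbtb46 the small RNA gene Gm22708, so reads could have been split or shared there.

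In the pre-lymphoma set, Siglech and Xcr1 stood apart most from control in both fusion groups. Siglech, which encodes a sialic acid-binding receptor on plasmacytoid dendritic cells, had 95.3, 79.9 and 70.5 CPM in fusion/fusion libraries and 79.6, 73.4 and 48.6 CPM in control/fusion libraries, against 21.6 and 9.67 CPM in control libraries. Every fusion library was above both controls, and the fusion groups overlapped. The log2 fold change was 2.4 ± 0.31 (SE) for fusion/fusion against control (edgeR adjusted p = 1.9e-04) and 2.1 ± 0.31 for control/fusion against control (adjusted p = 0.00181).

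Xcr1, which encodes the receptor for the chemokine XCL1 on type 1 cells, had 18.4, 14.4 and 17.1 CPM in fusion/fusion libraries and 10, 8.18 and 8.2 CPM in control/fusion libraries, against 2.45 and 2.98 CPM in control libraries. The 3 groups did not overlap. Its log2 fold change was 2.62 ± 0.18 for fusion/fusion against control (adjusted p = 5.9e-06), 1.69 ± 0.18 for control/fusion against control (adjusted p = 4.5e-04) and 0.93 ± 0.14 for fusion/fusion against control/fusion (adjusted p = 0.00258). Xcl1, its ligand, was higher in fusion/fusion than control by 1.37 ± 0.25 on the log2 scale (adjusted p = 0.00141). It did not pass in control/fusion against control (0.74 ± 0.25, adjusted p = 0.0604) or between the fusion groups (0.63 ± 0.21, adjusted p = 0.0662). Flt3l, which encodes the ligand of the member Flt3, was lower than in control in both fusion groups. Its values were -0.7 ± 0.11 in fusion/fusion (adjusted p = 7.0e-04) and -0.67 ± 0.11 in control/fusion (adjusted p = 0.00344).

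Of the 8 members, 7 were higher in control/fusion than in control, where 20.3% of the 16257 genes tested were called, 11.6% higher and 8.7% lower. Beside Siglech and Xcr1 these were Flt3, the receptor for FLT3 ligand, with a log2 fold change of 1.13 ± 0.2 (adjusted p = 0.00411), and Itgax with 0.96 ± 0.14 (adjusted p = 0.00189). Zbtb46, a transcription factor of conventional dendritic cells, gave 0.92 ± 0.25 (adjusted p = 0.0261). Clec9a, a receptor for actin of dead cells, gave 0.82 ± 0.22 (adjusted p = 0.0258), and Batf3 gave 0.73 ± 0.19 (adjusted p = 0.0228). Cd209a, a C-type lectin related to human DC-SIGN, did not pass, at 0.27 ± 0.3 (adjusted p = 0.561). The median over the members was 0.94, against 0 over all genes. Without the control library TA019, 3 members were called, Siglech, Xcr1 and Itgax, and 852 genes in all, against 3299 with it, in a fit with 1 control library left. The call of Batf3 was also lost without TA018, TA020 or TA021, that of Clec9a without TA018 or TA020 and that of Zbtb46 without TA021.

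In fusion/fusion against control, 4 members were higher, where 45.7% of genes tested were called, 23.8% higher and 22% lower. The 4 of 8 members called stand near the share of all genes called in either direction. Clec9a had 9.43, 6.05 and 8.32 CPM in fusion/fusion libraries, against 5.6 and 4.78 CPM in control libraries, a log2 fold change of 0.62 ± 0.22 (adjusted p = 0.039). Flt3 had 20.6, 20.2 and 19.8 CPM in fusion/fusion libraries, against 16.2 and 11.6 CPM in control libraries, a log2 fold change of 0.54 ± 0.2 (adjusted p = 0.0457). For both genes the libraries did not overlap, but both calls were lost without TA019, without TA023 and without TA025, each of which left 2 called. The call of Clec9a was also lost without TA018 (adjusted p = 0.0747) and that of Flt3 without TA024 (adjusted p = 0.0882). Batf3 at 0.5 ± 0.19 (adjusted p = 0.052), Itgax at 0.24 ± 0.14 (adjusted p = 0.182), Zbtb46 at 0.22 ± 0.25 (adjusted p = 0.498) and Cd209a at -0.11 ± 0.3 (adjusted p = 0.799) did not pass. The median over the members was 0.52, against -0.01 over all genes.

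Between the fusion groups, Itgax, Flt3 and Zbtb46 were lower in fusion/fusion than in control/fusion while Xcr1 was higher, where 18.9% of genes were called, 9.59% higher and 9.3% lower. Itgax had 44.1, 53.1 and 51.3 CPM in fusion/fusion libraries, against 71.5, 96.6 and 75.8 CPM in control/fusion libraries, a log2 fold change of -0.72 ± 0.13 (adjusted p = 0.00462). Flt3 differed by -0.59 ± 0.17 (adjusted p = 0.038) and Zbtb46 by -0.7 ± 0.22 (adjusted p = 0.0491), and in none of the 3 genes did the groups overlap. Leaving out any of TA020, TA021, TA023, TA024 or TA025 left 2 members called, Xcr1 and Itgax, with the other calls at adjusted p between 0.0529 and 0.172. Zbtb46 was lost without TA022 as well (adjusted p = 0.0677), so its call was lost whichever of the 6 fusion libraries was left out. Siglech at 0.3, Clec9a at -0.2, Batf3 at -0.23 and Cd209a at -0.38 on the log2 scale did not pass.

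Further genes used as markers of these cells were read from lists chosen, like the members, with earlier results of these data known. Which cells of the libraries expressed them was not tested. Over all genes, 23.8% were called higher and 22% lower in fusion/fusion than in control, and 11.6% higher and 8.7% lower in control/fusion. Of 13 further plasmacytoid genes, 9 were higher in fusion/fusion and 9 in control/fusion than in control, and none was lower. Klk1, a kallikrein used as a plasmacytoid marker in mouse, was higher in fusion/fusion by 2.61 ± 0.24 on the log2 scale (adjusted p = 2.7e-05) and in control/fusion by 2.46 ± 0.24 (adjusted p = 3.2e-04). Of 11 further type 1 genes, 6 were higher in each fusion group than in control, among them Irf8, the transcription factor that works with BATF3, by 1.15 ± 0.16 in fusion/fusion (adjusted p = 3.0e-04) and 0.9 ± 0.16 in control/fusion (adjusted p = 0.00435). Of 11 further type 2 genes, 6 were higher and 1 lower in fusion/fusion, and 7 were higher in control/fusion. Mgl2, a lectin of type 2 cells and macrophages, was higher in fusion/fusion by 3.5 ± 0.57 (adjusted p = 7.5e-04). Of 13 genes of mature migratory cells, 11 were tested, of which 6 were higher and 1 lower in fusion/fusion, and 5 were higher and 1 lower in control/fusion. The lower gene in each was Ccr7, the lymph node homing receptor that naive T cells also express, at log2 fold changes of -1.73 ± 0.08 in fusion/fusion (adjusted p = 6.5e-07) and -0.9 ± 0.08 in control/fusion (adjusted p = 1.8e-04).

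Between the fusion groups themselves, 2 of the 11 further type 1 genes were called lower and none higher, with 6 of the 11 values positive. Over all genes, 9.3% were called lower and 9.59% higher. Wdfy4 and Cadm1 were lower in fusion/fusion, at log2 fold changes of -0.79 ± 0.09 (adjusted p = 5.4e-04) and -0.84 ± 0.21 (adjusted p = 0.0223). The type 2, plasmacytoid and mature lists had calls in both directions. Among them were Mgl2 at 2.16 (adjusted p = 0.00995) and Clec4a4 at -1.7 (0.00143) of type 2. The plasmacytoid list had Bst2 at 0.37 (0.0403) and Tlr7 at -0.52 (0.0184), and the mature list Fscn1 at 0.59 (0.00633) and Ccr7 at -0.83 (2.1e-04). Markers of other cells were read beside them. The 12 macrophage genes summed to 2326 to 3158 CPM in fusion/fusion, 2994 to 6177 CPM in control/fusion and 2242 to 3015 CPM in control libraries, with 1 higher and 1 lower call in fusion/fusion against control. Between the fusion groups, 4 of the 12 were lower in fusion/fusion, as were Itgax, Flt3 and Zbtb46, among them Cd163 at -1.16 ± 0.26 (adjusted p = 0.0134) and Mertk, a receptor for dying cells, at -1.05 ± 0.23 (adjusted p = 0.0118). The 6 monocyte genes summed to 930 to 1170 CPM in fusion/fusion, 422 to 532 CPM in control/fusion and 335 to 372 CPM in control libraries, without overlap. Of these, 4 were higher and 2 lower in fusion/fusion than in control. The higher ones included Ccr2, a chemokine receptor used as a monocyte marker, at 1.93 ± 0.14 (adjusted p = 8.3e-06) and Lyz2, a lysozyme of myeloid cells, at 1.56 ± 0.16 (adjusted p = 5.0e-05). The lower ones were Vcan at -1.21 ± 0.41 (adjusted p = 0.0332) and F13a1 at -0.44 ± 0.15 (adjusted p = 0.037). In control/fusion both were also lower than in control, at -1.77 ± 0.42 (adjusted p = 0.0164) and -1.12 ± 0.16 (adjusted p = 0.00142). The 6 plasma cell genes summed to 1284 to 1474 CPM in fusion/fusion, 603 to 723 CPM in control/fusion and 436 to 667 CPM in control libraries, with 5 called higher in fusion/fusion than in control. The 5 NK cell genes summed to 48.3 to 53.2 CPM in fusion/fusion, 25 to 40.2 CPM in control/fusion and 24.3 to 27.7 CPM in control libraries, with 3 called higher. The 6 erythroid genes summed to 308 to 356 CPM in fusion/fusion, 118 to 540 CPM in control/fusion and 49.4 to 117 CPM in control libraries. All 6 were called higher in fusion/fusion than in control, at log2 fold changes from 1.9 to 2.51. Of the endothelial list, Kdr and Cdh5 were higher in fusion/fusion, at 2.43 ± 0.35 (adjusted p = 3.7e-04) and 2.02 ± 0.28 (adjusted p = 3.2e-04). Pecam1 of that list was lower, at -0.44 ± 0.06 (adjusted p = 2.1e-04). The 8 B cell genes summed to 415 to 493 CPM in fusion/fusion, 390 to 478 CPM in control/fusion and 483 to 578 CPM in control libraries. Their part in the members' differences was not tested.

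**Figure D1:**
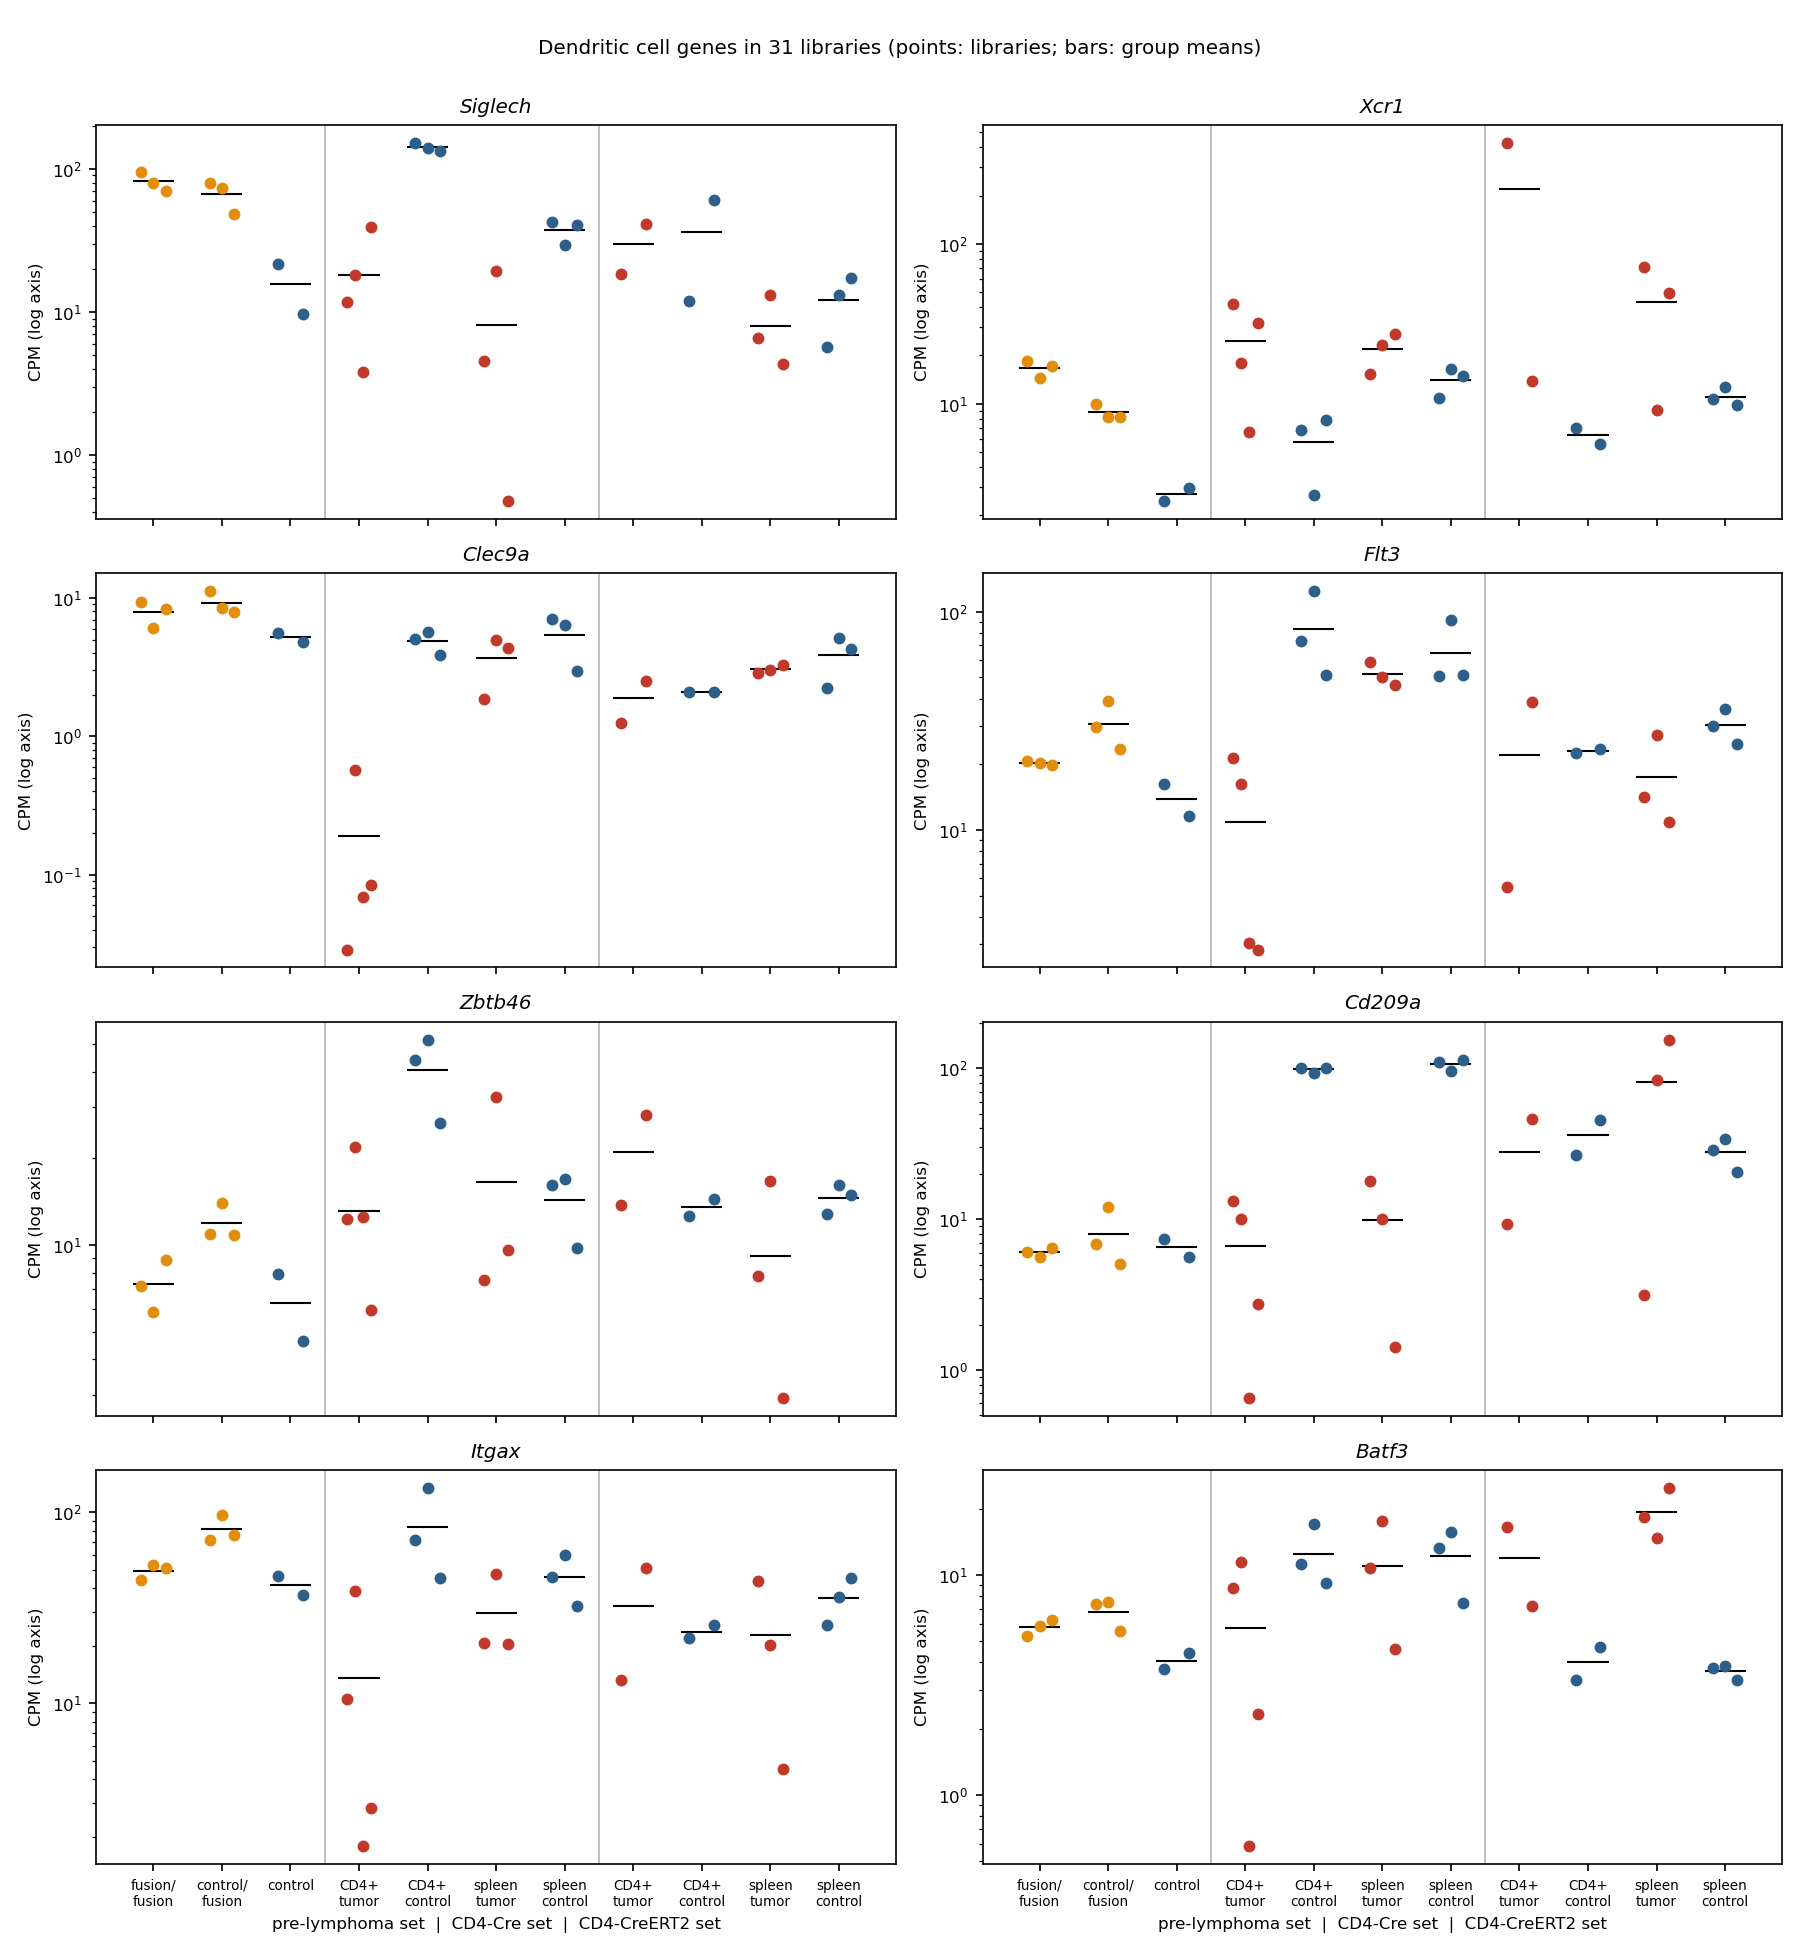
CPM of each gene (log axis) in all 31 libraries, 1 point a library with bars at group means, grouped by set; red is tumor, orange fusion and blue control. Xcr1 reaches 427 CPM in 1 CD4-CreERT2 tumor library, and Clec9a lies at or below 0.575 CPM in the 4 CD4-Cre tumor CD4+ libraries.

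In CD4+ cells of CD4-Cre tumors, 7 of the 8 members had negative fold changes against control and Xcr1 a positive one, and no member passed in edgeR, where 0.157% of 17841 genes were called, 0.0168% higher and 0.14% lower. By an unadjusted p under 0.05 there were 2699 genes, and by DESeq2 1263. DESeq2 called 6 of the 8 members, and edgeR without the filter on low counts called 7. Without VM58, Clec9a alone was called by edgeR, at a log2 fold change of -6.32 (adjusted p = 0.0233), and without VM98, Siglech alone was called, at -3.7 (adjusted p = 0.0241). The fit on all CD4-Cre groups together called 1 member, Clec9a, at -4.62 (adjusted p = 0.0266). The share of all genes called is not given here for that fit or without VM58, so these calls have no background. For no filter and without VM98, the numbers of genes called stand in the last section. The median log2 fold change over the members was -2.82, against 0.06 over all genes.

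Clec9a had few counts in these tumor libraries. It had 1, 20, 2 and 2 counts in tumor mice VM388, VM58, VM645 and VM98, against 216, 219 and 133 counts in control mice VM211, VM216 and VM645. In CPM these were 0.0287, 0.575, 0.0686 and 0.0843 in tumor libraries, against 5.04, 5.64 and 3.9 in control libraries. The groups did not overlap, and the highest tumor library had an exact Poisson interval of 0.351 to 0.887 CPM, which covers counting error only, as amplified reads are not independent molecules. The log2 fold change was -4.66 ± 0.95 (adjusted p = 0.0977), with a DESeq2 adjusted p of 1.7e-05. Without the VM645 libraries it was -4.54 (adjusted p = 0.299).

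Cd209a had 13.2, 9.97, 0.652 and 2.74 CPM in tumor mice VM388, VM58, VM645 and VM98, against 101, 93.8 and 101 CPM in control libraries, a log2 fold change of -3.93 ± 0.84 (adjusted p = 0.102). The control libraries lay close together and far above every tumor library. Siglech had 11.7, 18.2, 3.81 and 39.2 CPM in tumor libraries, against 152, 139 and 133 CPM in control libraries, a log2 fold change of -2.99 ± 0.65 (adjusted p = 0.105). Flt3 had 21.3, 16.3, 3.02 and 2.83 CPM in tumor libraries, against 73.3, 124 and 51.5 CPM in control libraries, a log2 fold change of -2.97 ± 0.75 (adjusted p = 0.144). Zbtb46 had 12.3, 21.9, 12.5 and 5.95 CPM in tumor libraries, against 43.7, 51.6 and 26.6 CPM in control libraries, a log2 fold change of -1.66 ± 0.42 (adjusted p = 0.145). Itgax had 10.5, 38.9, 1.78 and 2.83 CPM in tumor libraries, against 71.4, 134 and 45.2 CPM in control libraries, a log2 fold change of -2.66 ± 0.99 (adjusted p = 0.263). Without the VM645 libraries the log2 fold changes were -3.54 for Cd209a, -2.7 for Siglech, -2.93 for Flt3, -1.88 for Zbtb46 and -2.61 for Itgax, and no member was called. In each of these 5 genes, and in Clec9a, all tumor libraries were below all control libraries. The share of all genes that separate in this way is not given here, so this is a description only.

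Batf3 overlapped, with 8.69, 11.4, 0.583 and 2.32 CPM in tumor libraries, against 11.2, 17 and 9.19 CPM in control libraries, a log2 fold change of -1.15 ± 0.83 (adjusted p = 0.57) and of -0.96 without the VM645 libraries. Xcr1 also overlapped, with 42.2, 18, 6.62 and 32 CPM in tumor libraries, against 6.79, 2.68 and 7.84 CPM in control libraries. Of the 4 tumor libraries, 3 were above every control, and VM645 was within their range. Its log2 fold change was 2.06 ± 0.65 (adjusted p = 0.204), with a DESeq2 adjusted p of 0.0134, and 2.66 without the VM645 libraries (adjusted p = 0.251).

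Of the 13 further plasmacytoid genes, 1 was called, Klk1, at a log2 fold change of -4.12 ± 0.53 (adjusted p = 0.0402), and none of the 11 type 1 or 11 type 2 genes. The type 1 list had a median log2 fold change of -0.7, with 10 of 11 values negative, and the type 2 list one of -1.4, also with 10 of 11 negative. The 12 macrophage genes had a list median of -2.85 and 2 of 12 genes called lower, Cd163 at -5.19 ± 0.48 (adjusted p = 0.0138) and Slc40a1 at -5.7 ± 0.56 (adjusted p = 0.0167), both genes of iron-recycling spleen macrophages. Their sum was 184 to 2036 CPM in tumor libraries and 2921 to 5203 CPM in control libraries. The B cell sum was 57 to 786 CPM in tumor and 721 to 1121 CPM in control libraries, and the T cell sum 4432 to 5806 CPM in tumor and 3634 to 4164 CPM in control libraries. The part of these markers in the members' differences was not tested.

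**Figure D2:**
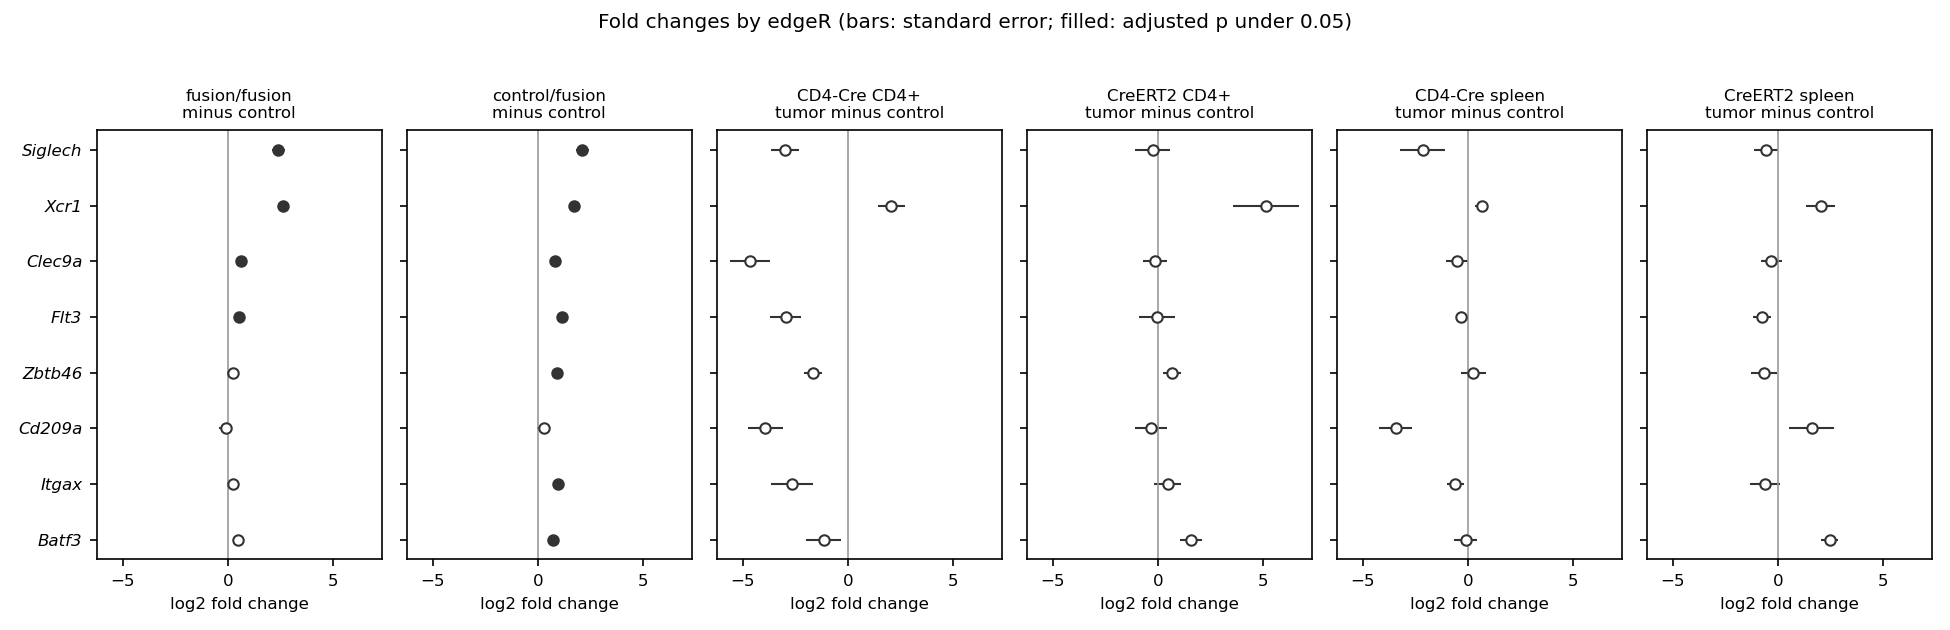
Log2 fold changes (x axis) of the 8 genes in 6 comparisons with their standard errors as bars; filled points have an edgeR adjusted p under 0.05. Calls stand only in the pre-lymphoma set, while the CD4-Cre tumor CD4+ libraries give values as low as -4.66 for Clec9a with wide errors.

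In whole spleens of CD4-Cre tumor mice, no member and none of 17050 genes was called by edgeR, which puts the background at 0%, with 2373 genes at an unadjusted p under 0.05 and 731 called by DESeq2. Cd209a had 17.9, 10.1 and 1.43 CPM in tumor mice VM388, VM58 and VM98, against 110, 95.9 and 114 CPM in control libraries, a log2 fold change of -3.44 ± 0.79 (adjusted p = 0.213). The groups did not overlap. DESeq2 called it (adjusted p = 3.0e-04), as did edgeR without VM98, at -2.88 (adjusted p = 0.0147), and edgeR without the filter on low counts. Siglech had 4.53, 19.5 and 0.477 CPM in tumor spleens, against 42.7, 29.5 and 40.7 CPM in control spleens, again without overlap, at -2.15 ± 1.07 (adjusted p = 0.419), and at -3.89 without VM58 (adjusted p = 0.156). The 0.477 CPM of VM98 spleen rests on 14 counts.

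Clec9a, near 0 in the CD4+ cells of these mice, overlapped between tumor and control in spleen, with 1.87, 4.94 and 4.32 CPM in tumor spleens, against 7.02, 6.36 and 2.95 CPM in control spleens. Its log2 fold change in spleen was -0.54 ± 0.53 (adjusted p = 0.684). Xcr1 gave 0.65 ± 0.31 (adjusted p = 0.404), with 15.3, 23.4 and 27.3 CPM in tumor spleens, against 10.9, 16.5 and 14.9 CPM in control spleens. Itgax at -0.61, Flt3 at -0.32, Zbtb46 at 0.25 and Batf3 at -0.12 had adjusted p of 0.551 or more and overlapping groups. The median over the members was -0.43, against 0.04 over all genes. Without the VM645 control spleen no member was called, with Cd209a at -3.39, Siglech at -2.13 and Clec9a at -0.84. The B cell sum was 1576 to 5361 CPM in tumor spleens and 6277 to 7208 CPM in control spleens, and the sum of 7 MHC class II genes 6698 to 24444 CPM in tumor spleens and 25704 to 28982 CPM in control spleens, both without overlap. The macrophage sum was 1303 to 1641 CPM in tumor spleens and 1620 to 3451 CPM in control spleens, and the neutrophil sum of 8 genes 157 to 74702 CPM in tumor spleens and 6824 to 48578 CPM in control spleens, with the highest value in VM98. Their part in the members' values was not tested.

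Whether the tumor effect in the CD4-Cre set differed by tissue was tested as an interaction, CD4+ minus spleen, in which edgeR called none of 19503 genes (a background of 0%, 1429 at an unadjusted p under 0.05, DESeq2 51). For Clec9a the CD4+ effect minus the spleen effect was -4.07 ± 1.1 on the log2 scale (adjusted p = 0.676), with a DESeq2 adjusted p of 0.0388. Flt3 gave -2.61 ± 0.91 and Zbtb46 -1.84 ± 0.76, with the same adjusted p of 0.676. Without the VM645 libraries these were -3.66 for Clec9a, -2.42 for Flt3 and -1.85 for Zbtb46. The other 5 members had unadjusted p of 0.05 or more.

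In CD4+ cells of CD4-CreERT2 tumors, with 2 libraries a group, edgeR called no member and none of 17341 genes, a background of 0%, with 896 genes at an unadjusted p under 0.05 and 271 called by DESeq2. Xcr1 had 427 CPM in VM231, from 15893 counts, and 13.9 CPM in VM236, against 7.04 and 5.61 CPM in control mice A1 and A3. Both tumor libraries were above both controls, and VM231 was far above every other library of its set. The log2 fold change was 5.12 ± 1.57 (adjusted p = 0.916), with a DESeq2 adjusted p of 0.00101. Without VM231 it was 1.15, and without VM236 it was 6.09 (adjusted p = 7.0e-05), in a fit where the lone tumor library is assumed to vary like the controls.

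Batf3 had 16.5 CPM in VM231 and 7.25 CPM in VM236, against 3.32 and 4.69 CPM in control libraries, a log2 fold change of 1.57 ± 0.53 (adjusted p = 0.916), again without overlap. In the other 6 members the groups overlapped, and their log2 fold changes ran from -0.35 for Cd209a to 0.65 for Zbtb46. The 2 tumor libraries differed from each other in most members. Flt3 had 5.46 CPM in VM231 and 38.4 CPM in VM236, against 22.6 and 23.6 CPM in control libraries, so 1 tumor library was below and 1 above both controls. Cd209a had 9.28 CPM in VM231 and 46.3 CPM in VM236, against 26.7 and 45.4 CPM in control libraries. Without VM236, 4 members were called, Xcr1, Flt3, Cd209a and Batf3, with Flt3 at -2.07 and Cd209a at -1.95, among 3254 genes called. The 8 neutrophil genes summed to 5855 CPM in VM231 and 77 CPM in VM236, against 40.7 to 59.9 CPM in control libraries. The macrophage genes summed to 1190 CPM in VM231 and 5058 CPM in VM236, against 215 to 561 CPM in control libraries. Their part in the members' values was not tested.

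In whole spleens of CD4-CreERT2 tumor mice, Batf3 was higher in each tumor library than in any control library, with 18.4, 14.7 and 24.8 CPM in tumor mice VM231, VM236 and VM294, against 3.78, 3.83 and 3.31 CPM in control spleens. Its log2 fold change was 2.44 ± 0.42, which edgeR did not call (adjusted p = 0.122) and DESeq2 did (adjusted p = 4.0e-06). No member and none of 16163 genes was called by edgeR, a background of 0%, with 3241 genes at an unadjusted p under 0.05 and 1817 called by DESeq2. Without VM236, 2 members were called, Batf3 at 2.72 (adjusted p = 0.0236) and Xcr1 at 2.57 (adjusted p = 0.0213), and DESeq2 called the same genes.

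Xcr1 had 71.1, 9.17 and 49.3 CPM in tumor spleens of VM231, VM236 and VM294, against 10.6, 12.6 and 9.85 CPM in control spleens, a log2 fold change of 2.01 ± 0.7 (adjusted p = 0.198). The male tumor mice were high and the female VM236 was below all controls, which were female, so with a term for sex the value was -0.29 (adjusted p = 0.908). Sex and mouse cannot be told apart among these 3 tumors. Cd209a spread most, with 3.14, 83.7 and 155 CPM in tumor spleens, against 28.7, 34.1 and 20.7 CPM in control spleens, a log2 fold change of 1.58 ± 1.07 (adjusted p = 0.424). Siglech, Clec9a, Flt3, Zbtb46 and Itgax had log2 fold changes between -0.78 and -0.33 and overlapping groups, and the median over the members was -0.46, against -0.02 over all genes. Neutrophil genes had a list median of 6.88, with sums of 2513 to 101841 CPM in tumor spleens and 351 to 814 CPM in control spleens. Macrophage genes had a list median of 2.4, with sums of 817 to 2627 CPM in tumor spleens and 307 to 562 CPM in control spleens. B cell genes summed to 825 to 5520 CPM in tumor spleens and 8242 to 8625 CPM in control spleens, without overlap. The library of VM294 had a TMM factor of 0.602. Their part in the members' values was not tested.

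The spleen tumor effect was set against that of the other driver in an interaction, CD4-CreERT2 minus CD4-Cre, on symbols in both kinds of table. No member was called, while edgeR called 8 of 17784 genes, all higher, which is 0.045%. With library size alone 77.8% of 9 called genes were higher. Cd209a gave 5.09 ± 1.48 (adjusted p = 0.156) and Batf3 2.61 ± 0.71 (adjusted p = 0.146), and DESeq2 called both, at adjusted p of 0.00687 and 0.0125. Without the VM645 spleen they were 5.04 and 2.87. The other 6 members had unadjusted p of 0.05 or more. Without VM231, edgeR called Cd209a, at 5.65 (adjusted p = 0.0195). The sets were counted in different tables, and set and driver cannot be told apart.

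The ratio of Xcr1 to Clec9a counts does not depend on how a library is scaled. It was chosen after its values were seen and is given as a description. In CD4+ tumor libraries of the CD4-Cre set the ratio was 1473 in VM388 (exact 95% interval 264 to 58219), 31.4 in VM58 (20.2 to 51.8), 96.5 in VM645 (26.4 to 803) and 380 in VM98 (105 to 3139), against 1.35, 0.475 and 2.01 in control libraries. All 4 tumor values lay above the 3 control values. The intervals cover counting error within a library only and say nothing of the spread between mice. In CD4+ tumor libraries of the CD4-CreERT2 set it was 346 in VM231 and 5.51 in VM236, against 3.37 and 2.67 in control libraries. Spleen libraries overlapped between tumor and control in both sets. There the ratio was 8.18, 4.73 and 6.31 in CD4-Cre tumors, against 1.56, 2.59 and 5.06 in controls. For CD4-CreERT2 spleens it was 24.9, 3.05 and 15.1 in tumors, against 4.75, 2.45 and 2.29 in controls. In the pre-lymphoma set it was 1.95, 2.38 and 2.06 in fusion/fusion and 0.899, 0.956 and 1.03 in control/fusion libraries, against 0.437 and 0.623 in control libraries. The 3 groups did not overlap.

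**Figure D3:**
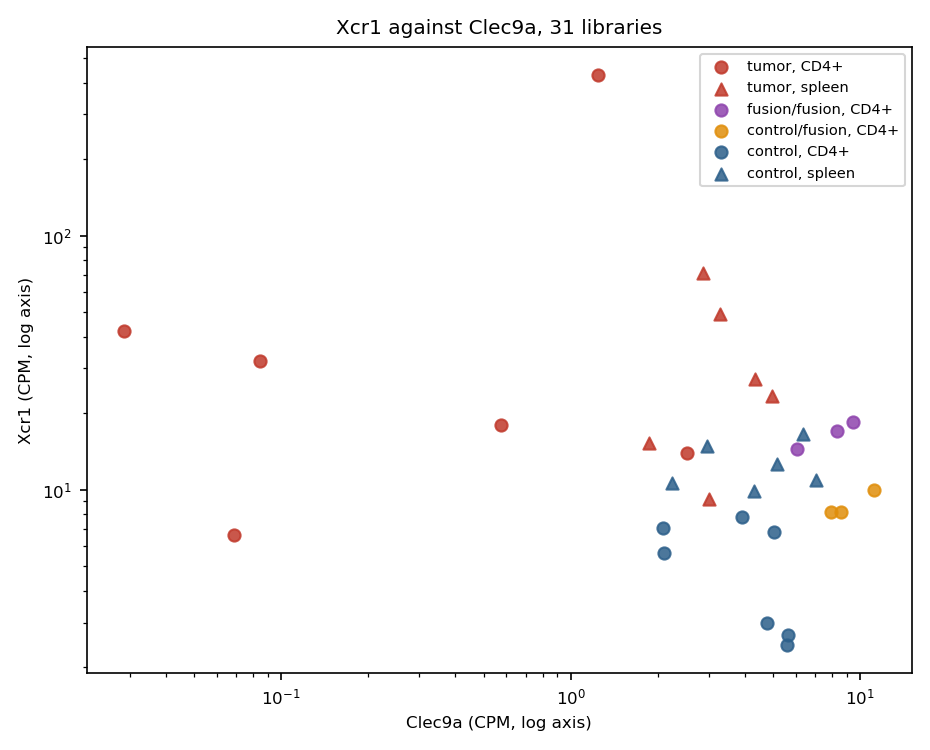
Xcr1 CPM against Clec9a CPM (both log axes), 1 point a library, circles for CD4+ cells and triangles for spleen. The 4 CD4-Cre tumor CD4+ libraries lie at the left with 0.0287 to 0.575 CPM of Clec9a, and the highest Xcr1 value, 427 CPM, is a CD4-CreERT2 tumor CD4+ library.

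The CD4+ libraries were also set against the spleen libraries of the same set and status, without pairing by mouse and with the mice that gave 1 tissue only. In controls of the CD4-Cre set, 2 members were higher and 1 lower in CD4+ cells than in spleen, where 25.7% of 17426 genes were called, 12.9% higher and 12.8% lower. Of the genes called, 50.1% were higher, against 82.1% with library size alone in place of TMM. Siglech had 152, 139 and 133 CPM in CD4+ cells of VM211, VM216 and VM645, against 42.7, 29.5 and 40.7 CPM in their spleens, a log2 fold change of 1.91 ± 0.16 (adjusted p = 3.9e-04). Zbtb46 had 43.7, 51.6 and 26.6 CPM in CD4+ cells, against 16.2, 16.9 and 9.77 CPM in spleens, a log2 fold change of 1.5 ± 0.3 (adjusted p = 0.0101). Both were higher in CD4+ cells of every mouse, and without the VM645 libraries both were called, at 2.02 and 1.53.

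Xcr1 had 6.79, 2.68 and 7.84 CPM in CD4+ cells, against 10.9, 16.5 and 14.9 CPM in spleens of the same mice, a log2 fold change of -1.29 ± 0.38 (adjusted p = 0.0428). It was lower in CD4+ cells of every mouse, but its call was lost without the VM645 libraries, at -1.52 (adjusted p = 0.0834), without the CD4+ library of VM211 (adjusted p = 0.0817), without either library of VM216 (adjusted p = 0.0504 and 0.119) and without the spleen library of VM645 (adjusted p = 0.106). With the mouse as a block, Itgax was called as well, at 0.76 (adjusted p = 0.00732). Of 12 macrophage genes, 4 were also called higher in these CD4+ libraries and none lower, while all 8 B cell and all 8 neutrophil genes were lower. Cd209a at -0.11, Clec9a at -0.17, Batf3 at 0.03, Flt3 at 0.36 and Itgax at 0.86 did not pass.

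In controls of the CD4-CreERT2 set, 1 member was lower in CD4+ cells, where 21.6% of genes were called, 10.3% higher and 11.3% lower. Xcr1 had 7.04 and 5.61 CPM in CD4+ cells of A1 and A3, against 10.6, 12.6 and 9.85 CPM in spleens of A1, A2 and A3, a log2 fold change of -0.78 ± 0.22 (adjusted p = 0.0354). The groups did not overlap. The call was lost without either CD4+ library (adjusted p = 0.0513 without A1 and 0.203 without A3) and without the spleen library of A1 (0.0591) or A2 (0.134). Without the spleen library of A1, Clec9a and Itgax were called in its place. With the mouse as a block, 4 members were called, Siglech at 1.47 (adjusted p = 8.9e-12), Xcr1 at -0.69 (adjusted p = 0.0205), Cd209a at 0.53 (adjusted p = 0.0207) and Itgax at -0.52 (adjusted p = 0.0201), and the same mice without the block gave 0. That fit rests on 4 libraries of 2 mice, with 1 residual degree of freedom. Its share of all genes called is not given here, so these 4 calls have no background to be read against. Siglech had 11.9 and 60.3 CPM in CD4+ cells of A1 and A3, against 5.68 and 17.4 CPM in their spleens, and without the block and the CD4+ library of A3 its log2 fold change was 0.01, against 1.6 with it.

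In tumor mice no member was called between CD4+ cells and spleen. In the CD4-Cre set, where 0% of 17534 genes were called, with 2490 at an unadjusted p under 0.05 and 1238 by DESeq2, Clec9a gave -4.25 ± 1.04 (adjusted p = 0.17) and Flt3 -2.25 ± 0.71 (adjusted p = 0.223), and DESeq2 called both. Without the VM645 library they were -3.97 and -1.93. The CD4+ level of Clec9a was 0.0154, 0.116 and 0.0195 times the spleen level in VM388, VM58 and VM98, against 0.718, 0.888 and 1.33 times in control mice VM211, VM216 and VM645. Siglech in VM98 was 82.2 times as high in CD4+ cells as in spleen, against 2.58 times in VM388 and 0.935 times in VM58. The spleen value of VM98 rests on 14 counts, and its CD4+ library had 34546 genes with a count, against 18368 to 24649 in the others. In the CD4-CreERT2 set, where 0% of 17467 genes were called, with 672 at an unadjusted p under 0.05 and 73 by DESeq2, Siglech gave 1.89 ± 0.72 (adjusted p = 1). Xcr1 was 6.01 times as high in CD4+ cells as in spleen in VM231 and 1.51 times in VM236, against 0.662 and 0.57 times in control mice A1 and A3. Members not named for the tumor mice had unadjusted p of 0.05 or more.

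**Figure D4:**
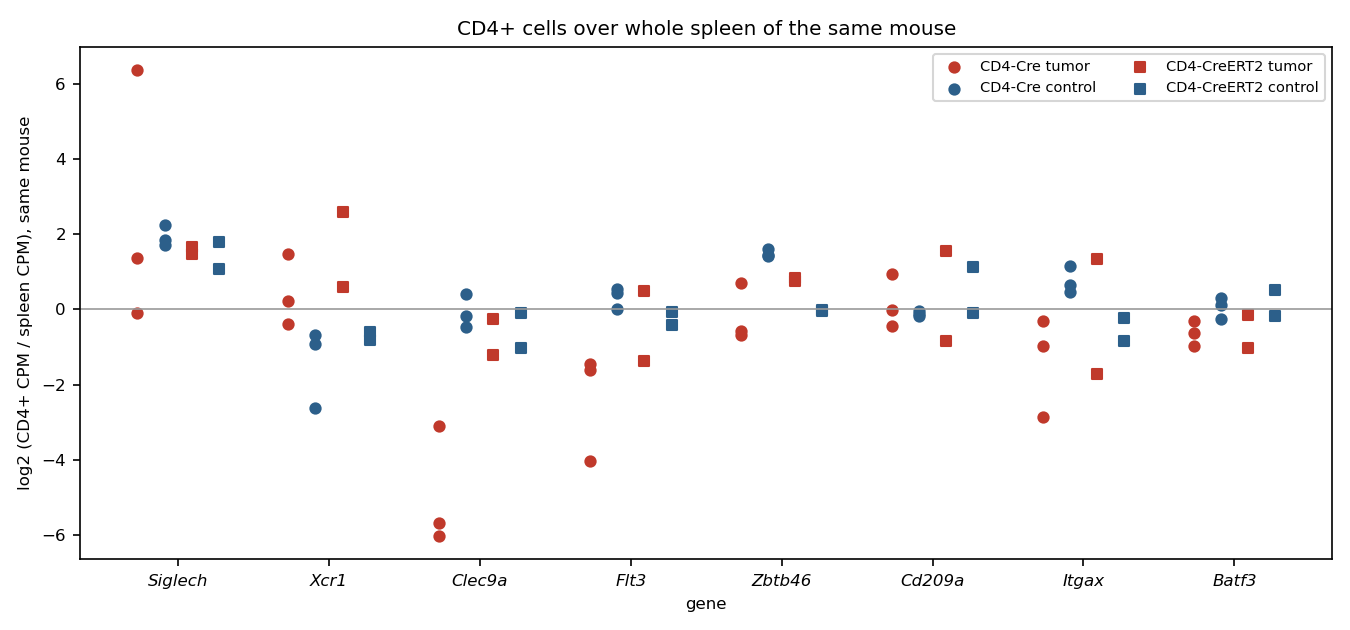
Log2 ratio of CD4+ CPM over spleen CPM in the same mouse (y axis) for each gene, red for tumor and blue for control mice, circles for the CD4-Cre and squares for the CD4-CreERT2 set. Clec9a ratios of the CD4-Cre tumor mice lie far below 0, and the Siglech ratio of VM98, an 82.2-fold difference, lies highest. The CD4+ library of VM98 had the most genes with a count, 34546.

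After each group was centred on its mean, the log2 levels of the members were compared over the 31 libraries, which share sets, mice and depth, so the values are descriptions. Among the members, Flt3 and Itgax had the highest Pearson r, 0.75 (Spearman rho 0.73), followed by Itgax and Zbtb46 at 0.71 (rho 0.8). The windows of Itgax and Zbtb46 both hold an AP-1 motif, that of Zbtb46 inside the gene, and a link was not tested. Xcr1 had r of -0.43 with Zbtb46 and -0.2 with Clec9a. Among 11601 genes, the pattern most like Itgax was that of Sulf2 (r 0.96), and most like Batf3 that of Dab2 (r 0.94). Cd209a was most like Retreg1 (r 0.92) and H2-Ab1 (r 0.91), and Flt3 most like Cyp4f16 (r 0.88). Zbtb46 was most like Relb (r 0.88), Xcr1 most like Phf10 (r 0.86), Siglech most like Gdf11 (r 0.84) and Clec9a most like Cul9 (r 0.77).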

How the data were processed

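The deposited files give unscaled gene counts, 1 table a library. Per the labels, extraction was with the RNeasy Micro kit and amplification with SMART-Seq v4 and sequencing on an Illumina HiSeq. The submitters' processing notes name HISAT2 2.1.0 and HTSeq 0.5.4, with build mm10 for 21 libraries and mm10 with GRCm38 for 10. The annotation release and strand are not given in the sources used here, and the CD4-CreERT2 tables are laid out differently from the others. Ensembl IDs there were mapped to symbols with GENCODE vM21, whose coordinates of the members equal those in the tables. Rows that name no gene were left out.

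Genes were filtered with filterByExpr, scaled by TMM and tested with the two-sided quasi-likelihood F test of edgeR 4.0.16, in R 4.3.3, with Benjamini-Hochberg adjustment over all genes tested and a threshold of 0.05. The SE is the log2 fold change over the square root of F. The 3 groups of the pre-lymphoma set share 1 fit, and tumor comparisons use their own groups. DESeq2 1.42.0, no filter, library size alone, a sex term, the mouse block and left-out libraries were alternatives. Same-numbered CD4+ and spleen libraries come from 1 mouse by title, and their deviations correlated at 0.16 to 0.39. In the CD4-CreERT2 set, where 2 mice of each status gave both tissues, both share 1 value by construction (0.26 in controls, 0.39 in tumors). The main tests do not use this pairing, which enters only in the mouse block. The 8 members are all named, with at most 3 called genes of each other list, or else its most abundant gene. Of the monocyte list the genes called lower in the pre-lymphoma set are named as well. Likeness used log2 CPM with a prior count of 2. Members and lists were chosen with earlier results of these data known. Depth was 12632196 to 37568512 counts per library.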

Additional observations from a re-analysis of the deposited data

Results flagged for a closer look

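Clec9a in the CD4-Cre tumor CD4+ libraries had 0.575 CPM in VM58, far from the other 3, which had 0.0287 to 0.0843 CPM. Of 8 groups of 4 or more libraries and genes looked at in this way, 1 was picked out, and chance picks about 1 in 20.

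Zbtb46 and Batf3 had differences of opposite sign in the CD4+ cells of the tumor models, with every tumor library on its own side of the control mean. For Zbtb46 the mean log2 CPM change was -1.72 in the CD4-Cre and 0.55 in the CD4-CreERT2 set, a difference of -2.27. For Batf3 it was -1.82 in the CD4-Cre and 1.47 in the CD4-CreERT2 set, a difference of -3.29. The difference between the sets was not tested for either gene. These were 2 of 32 pairs looked at.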

How the results depend on the processing

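The members' counts of calls changed with the filter on low counts, the tool, single libraries and the mouse block, and the cause was not tested. Leaving out each library in turn gave 3 to 7 members called for control/fusion against control, 2 to 3 for fusion/fusion against control and 2 to 3 between the fusion groups. In tumors it gave 0 to 1 in CD4-Cre CD4+ cells, 0 to 1 in CD4-Cre spleens, 0 to 4 in CD4-CreERT2 CD4+ cells, 0 to 2 in CD4-CreERT2 spleens and 0 to 1 between drivers. It gave 0 to 2 for CD4+ cells against spleen in CD4-CreERT2 controls. DESeq2 called 6 members in CD4-Cre CD4+ tumor cells, 1 in CD4-Cre tumor spleens, 1 in CD4-CreERT2 CD4+ tumor cells, 2 in CD4-CreERT2 tumor spleens, 2 between CD4+ cells and spleen of CD4-Cre tumors, 1 for the tissue interaction and 2 for the driver interaction. Without the filter on low counts these were 7, 1, 0, 1, 2, 0 and 1, and 3 in CD4-CreERT2 controls. The fit on all CD4-Cre groups called 1, and its share of all genes called is not given here either. With the mouse as replicate block, 4 were called in CD4-CreERT2 controls, and 0 in the same mice with no block, an alternative chosen after seeing the data. The share of all genes called by that fit is not given here. The block changed no other count of members by over 1.5 times, though it added Itgax in CD4-Cre controls. Over all genes it called 11 between CD4+ cells and spleen of CD4-Cre tumors and 192 of CD4-CreERT2 tumors, against 0 without it.

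Over all genes, no filter called 658 in CD4-Cre CD4+ tumor cells, 183 in CD4-Cre tumor spleens, 55 in CD4-CreERT2 CD4+ tumor cells, 416 in CD4-CreERT2 tumor spleens and 446 for the driver interaction, against 28, 0, 0, 0 and 8 as reported. Without VM236, 891 genes were called in CD4-CreERT2 tumor spleens, without VM98, 608 in CD4-Cre tumor spleens and 579 in CD4-Cre CD4+ tumor cells, and without VM231, 374 in CD4-CreERT2 CD4+ tumor cells and 1383 for the driver interaction.

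All sign changes were of members that did not pass in the comparison. When each library was left out, Cd209a ran from -0.15 to 0.53 for control/fusion and -0.3 to 0.1 for fusion/fusion against control, and -0.64 to 0.04 between the fusion groups, and Zbtb46 from -0.13 to 0.65 for fusion/fusion against control. In CD4-Cre tumor spleens Flt3 ran from -0.47 to 0.05, Zbtb46 from -0.73 to 0.63 and Batf3 from -0.65 to 0.29. In CD4-CreERT2 CD4+ tumor cells Siglech ran from -1 to 1.35, Clec9a from -0.75 to 0.28, Flt3 from -2.07 to 0.75, Cd209a from -1.95 to 0.38 and Itgax from -0.83 to 1.12. For CD4+ cells against spleen in controls, Clec9a ran from -0.47 to 0.07, Flt3 from -0.04 to 0.69 and Batf3 from -0.24 to 0.25 under CD4-Cre. Under CD4-CreERT2, Zbtb46 ran from -0.18 to 0, Cd209a from -0.03 to 0.73 and Batf3 from -0.1 to 0.39. Without the VM645 libraries Batf3 was -0.03 in CD4-Cre controls.

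With library size alone, without TMM, Batf3 was 0.15 in CD4-Cre tumor spleens, Flt3 0.06 in CD4-CreERT2 CD4+ tumor cells, and Clec9a 0.17 and Cd209a 0.25 in CD4-Cre controls. That scaling shifted the members' log2 fold changes by a median of 0.36 in CD4-Cre controls, 0.26 in CD4-Cre and -0.44 in CD4-CreERT2 tumor spleens, 0.5 for CD4+ cells against spleen of CD4-CreERT2 tumors, -0.28 for the tissue and -0.74 for the driver interaction. A term for sex turned Batf3 to 0.08 in CD4-Cre tumor spleens, Siglech to 0.22, Clec9a to 0.29, Flt3 to 0.76 and Cd209a to 0.39 in CD4-CreERT2 CD4+ tumor cells, and Siglech to 0.08, Xcr1 to -0.29 and Zbtb46 to 0.17 in CD4-CreERT2 tumor spleens. Depth limits Clec9a most, at 1 to 20 counts in CD4-Cre CD4+ tumor cells.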
